A study of Mus musculus with 6 samples.

Results

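The adult hemoglobin genes Hba-a1, Hba-a2, Hbb-bs and Hbb-bt and the erythroid heme synthesis gene Alas2 were examined in RNA-seq counts of the mouse brain. These 5 genes were found by symbol among the 53801 genes of the deposited table, each with a single entry, and all 5 were among the 23975 genes tested. The libraries came from a brain hemisphere of each of 3 Bahd1-WT (Bahd1+/+) and 3 Bahd1-KO (Bahd1-/-) mice, adults of the C57BL/6 strain about 70 weeks old that had received no treatment named in the labels. BAHD1 is a protein of repressive chromatin, and in the KO mice both copies of its gene were inactivated. WT and KO mice came from crosses of heterozygotes, and no perfusion of the brains is described in the sources used here. The question here was how the levels of these genes compared between genotypes and from library to library, the latter as a check of blood content.

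Hemoglobin carries oxygen in red blood cells as a tetramer of alpha and beta chains, each with a heme group. Adult mice make the alpha chains from Hba-a1 and Hba-a2 and, in the haplotype of C57BL/6, the beta chains from Hbb-bs (beta-s) and Hbb-bt (beta-t). Mature mammalian red cells have no nucleus, and the young red cells that leave the bone marrow, the reticulocytes, still hold globin mRNA, so that blood left in a tissue brings hemoglobin transcripts with it. ALAS2 performs the first, rate-limiting step of heme synthesis in red cell precursors, while its relative ALAS1 does so in other cells. Low hemoglobin expression has also been described in neurons and glia. In bulk tissue, a difference in the number of red cells and a difference in RNA per cell cannot be told apart.

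Each library held between 42297150 and 93557948 gene counts. Bahd1 itself had 1383, 844 and 1099 counts in Bahd1-WT replicates 1 to 3 and 0, 14 and 1 counts in Bahd1-KO replicates 1 to 3. Brain transcripts were abundant everywhere, with the neuronal gene Snap25 at 2944 to 4582 CPM and the myelin gene Mbp at 1202 to 4373 CPM. CPM stands for counts per 1000000 counts after TMM scaling, which equalizes libraries on most genes. Libraries also stood apart: 7 markers of lung epithelium, among them the surfactant gene Sftpc, summed to 111, 25.9 and 2.40 CPM in the WT replicates and to 0.483 to 1.44 CPM in KO, and transcripts of the mitochondrial genome took 13.4% to 16.3% of the WT counts and 7.46% to 10.5% of the KO counts. The part of the lung transcripts in the results below was not tested, and the hemoglobin ratio without mitochondrial counts is given below.

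The alpha genes lie on chromosome 11 of GRCm38, Hba-a1 at chr11:32283511-32284465 and Hba-a2 at chr11:32296489-32297298, both on the plus strand and 12024 bases apart. The beta genes lie on the minus strand of chromosome 7, Hbb-bt at chr7:103812524-103813996 and Hbb-bs at chr7:103826534-103828096, with 12538 bases between them. Alas2 occupies chrX:150547375-150570638 on the plus strand. The 250 bases before the start of transcription given by RefSeq (GRCm38.p6) are shown for 4 of these genes, so that the letters before the hemoglobin genes can be compared with those before Alas2. All 5 genes had an entry. Capitals mark matches to GATAA, the letters read by GATA factors, to CACCC, read by KLF factors, and to CCAAT, each on either strand, and to TATAA on the given strand only. The longest GENCODE models of these genes begin upstream of the RefSeq starts, within these windows.
Hba-a1 (chr11:32283422-32283671, plus strand): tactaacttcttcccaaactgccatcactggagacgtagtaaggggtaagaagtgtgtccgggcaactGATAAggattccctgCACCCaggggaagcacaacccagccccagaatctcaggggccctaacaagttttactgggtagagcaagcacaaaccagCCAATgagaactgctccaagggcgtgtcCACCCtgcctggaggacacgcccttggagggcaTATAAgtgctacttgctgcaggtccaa
Hbb-bs (chr7:103827929-103828178, minus strand): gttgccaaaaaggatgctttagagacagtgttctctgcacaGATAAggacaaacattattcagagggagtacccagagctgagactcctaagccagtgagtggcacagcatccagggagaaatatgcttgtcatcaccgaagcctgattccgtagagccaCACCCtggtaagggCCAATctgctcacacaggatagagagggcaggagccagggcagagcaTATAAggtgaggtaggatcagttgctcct
Hbb-bt (chr7:103813924-103814173, minus strand): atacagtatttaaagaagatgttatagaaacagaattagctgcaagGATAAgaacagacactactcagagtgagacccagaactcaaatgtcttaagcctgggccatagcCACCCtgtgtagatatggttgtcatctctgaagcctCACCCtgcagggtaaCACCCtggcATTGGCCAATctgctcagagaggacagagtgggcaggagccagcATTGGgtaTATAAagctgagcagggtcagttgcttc
Alas2 (chrX:150547167-150547416, plus strand): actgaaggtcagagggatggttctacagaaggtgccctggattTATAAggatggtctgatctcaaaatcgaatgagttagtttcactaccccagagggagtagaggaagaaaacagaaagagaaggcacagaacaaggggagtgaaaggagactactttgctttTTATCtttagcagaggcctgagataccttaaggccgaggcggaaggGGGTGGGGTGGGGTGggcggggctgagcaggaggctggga

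The Hba-a2 window was the same as that of Hba-a1 over 247 bases, shifted by 3, whereas the windows of Hbb-bs and Hbb-bt matched at 73.25% of 243 aligned bases. The letters GATAA occurred in all 5 windows and in 22.6% of the windows of 32851 mouse promoters. The letters CACCC were likewise in all 5, and in 52% of the promoters. The same held for TATAA, which 16% of the promoters contained. CCAAT was present before the 4 hemoglobin genes, as in 33.8% of all promoters, and was not found in the Alas2 window. In Alas2 the TATAA letters began 207 bases before the start, against 27 to 30 bases in the hemoglobin genes. The 3 CACCC matches of Alas2 lay on the opposite strand, 30 to 40 bases before the start, in the run GGGTGGGGTGGGGTG. A match to such short letters is a description and not a binding site.

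The copies of each pair also share most of their mRNA, which limits how reads can be told apart. The longest GENCODE transcripts of Hba-a1 and Hba-a2 were identical at 99.81% of 538 aligned bases, and those of Hbb-bs and Hbb-bt at 92.81% of 626. A read of 65 bases, the single-end length in the methods, could not be assigned to a single copy at 64.4% of the start positions in Hba-a1, 83.5% in Hba-a2, 64.9% in Hbb-bs and 57.3% in Hbb-bt. No such position existed in Alas2. The featureCounts call in the supplementary methods sets no option for reads with several matches, which that tool leaves out unless told otherwise. The split within each pair is therefore uncertain, and reads of the shared stretches may be missing from the pair sums, the ratios and the comparisons with Alas2 as well.

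Both alpha genes had higher mean levels in Bahd1-KO brains, and in neither did the libraries of the genotypes overlap, as was also so for 20.6% of all genes tested. Hba-a1 measured 0.885, 0.308 and 1.25 CPM in WT replicates 1 to 3 and 2.11, 17.2 and 3.07 CPM in KO replicates 1 to 3. The lowest KO library lay above the highest WT library, and KO replicate 2 lay far above every other library. These levels averaged 0.816 ± 0.477 CPM in WT and 7.47 ± 8.46 CPM in KO (SD, n = 3 per genotype). The log2 fold change of Hba-a1 was 3.19 (SE 0.84, 95% interval 1.29 to 5.09), with an adjusted p of 0.0642 in edgeR's quasi-likelihood test. Hba-a2 followed the same order, with 0.677, 0.421 and 0.982 CPM in WT and 1.08, 10.1 and 2.23 CPM in KO. The WT and KO libraries of Hba-a2 were separated by a narrow gap, between WT replicate 3 and KO replicate 1. Its log2 fold change was 2.69 (SE 0.76, 95% interval 0.96 to 4.42, adjusted p = 0.0675 in edgeR).

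The beta genes were also higher on average in KO, with overlap between the genotypes. Hbb-bs, the most abundant of the 5, measured 5.43, 6.54 and 8.92 CPM in WT and 7.97, 55.1 and 19.4 CPM in KO. KO replicate 1 fell inside the WT range, and the other 2 KO libraries lay above it. The log2 fold change of Hbb-bs was 1.99 (SE 0.60, 95% interval 0.63 to 3.34, adjusted p = 0.0741 in edgeR). Hbb-bt measured 0.765, 1.12 and 1.64 CPM in WT and 1.38, 6.70 and 2.57 CPM in KO, with KO replicate 1 again within the WT range. The log2 fold change of Hbb-bt was 1.61 (SE 0.55, 95% interval 0.36 to 2.86, adjusted p = 0.0955 in edgeR).

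**Figure D1:**
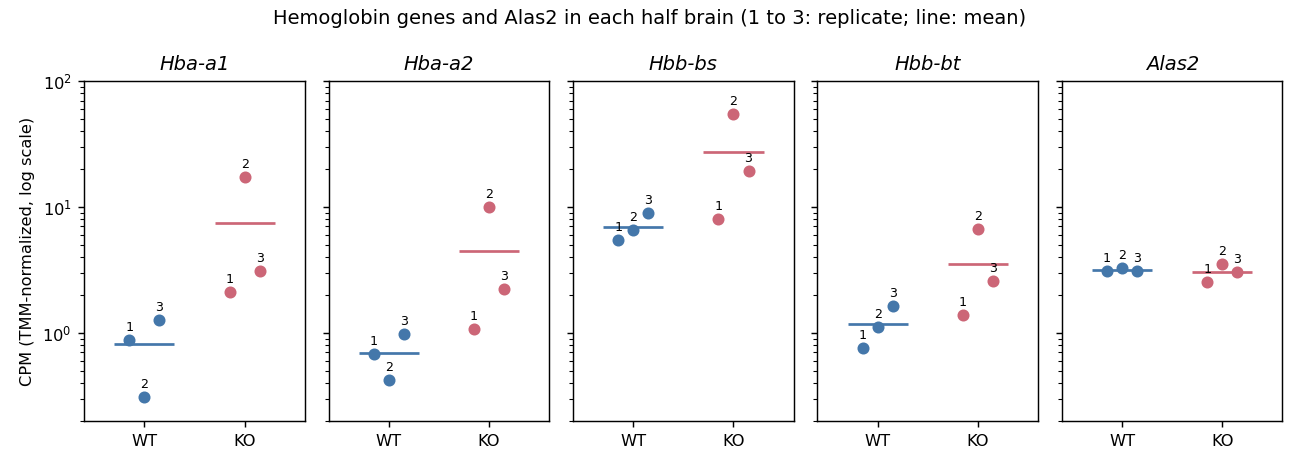
CPM of the 5 genes on a log axis in each library, with replicate numbers beside the points and a line at the mean of each genotype (n = 3). KO replicate 2 is the highest library for the 4 hemoglobin genes, at 17.2 CPM for Hba-a1 and 55.1 CPM for Hbb-bs, while the 6 libraries of Alas2 stay between 2.53 and 3.50 CPM.

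Alas2 did not follow the hemoglobin genes. It measured 3.08, 3.27 and 3.08 CPM in WT and 2.53, 3.50 and 3.04 CPM in KO, and the WT range lay within the KO range. The means were 3.14 ± 0.110 CPM in WT and 3.02 ± 0.484 CPM in KO (SD, n = 3). Its log2 fold change was -0.05 (SE 0.22, 95% interval -0.55 to 0.44, adjusted p = 0.880 in edgeR). The coefficient of variation of Alas2 over libraries was 3.49% in WT and 16.0% in KO. Those of the 4 hemoglobin genes were 25.6% to 58.5% in WT and 78.6% to 113% in KO.

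None of the 5 genes was called a differentially expressed gene (DEG) by edgeR, which needed an adjusted p under 0.05 and a 2-fold change or more. The same call was made for 0.00834% of all genes tested. At an unadjusted p under 0.05 the 4 hemoglobin genes were higher in KO (unadjusted edgeR values 0.00436 for Hba-a1, 0.00666 for Hba-a2, 0.00925 for Hbb-bs and 0.0172 for Hbb-bt), and 19.9% of all genes met that criterion in the same direction. All 3 KO libraries lay above all 3 WT libraries for 2 of the 5 genes and for 20.6% of all genes. DESeq2's Wald test called the 4 hemoglobin genes DEGs, with adjusted p-values of 0.0132 for Hba-a1, 0.0254 for Hba-a2, 0.00202 for Hbb-bs and 0.0114 for Hbb-bt, and not Alas2 (0.946). DESeq2 called 10.4% of all genes as higher in KO. EdgeR with total counts in place of TMM called Hba-a1, beside 8.37% of all genes, and edgeR with no filter on low counts called the 4 hemoglobin genes, beside 8.45%.

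Per length of exon, Hbb-bs was the most abundant of the 5 genes in both genotypes. In WT its mean was 9.07 CPM per kb, followed by Hbb-bt at 1.67, Alas2 at 1.31, Hba-a2 at 1.04 and Hba-a1 at 1.00 CPM per kb. The single-library ranges of the last 4 overlapped in WT, from 1.09 to 2.33 for Hbb-bt, 1.28 to 1.36 for Alas2, 0.631 to 1.47 for Hba-a2 and 0.379 to 1.54 CPM per kb for Hba-a1. In KO the means were 35.8 for Hbb-bs, 9.20 for Hba-a1, 6.69 for Hba-a2, 5.05 for Hbb-bt and 1.26 CPM per kb for Alas2. The KO libraries of the 2 alpha genes and Hbb-bt overlapped in level, at 1.62 CPM per kb or more, and those of Alas2, at 1.05 to 1.46 CPM per kb, lay below them.

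Summed over the 4 hemoglobin genes, the libraries formed a gradient that placed KO replicate 2 at the top. Hemoglobin took 7.64, 8.0 and 12.6 counts per 1000000 gene counts in WT replicates 1 to 3. It took 12.9, 90.7 and 28.2 counts per 1000000 gene counts in KO replicates 1 to 3. The 95% Wilson intervals were 11.8 to 13.4 for WT replicate 3 and 11.9 to 14.0 for KO replicate 1, so that these libraries could not be separated by counting error, which is the only error the intervals cover. The interval of KO replicate 2 was 88.8 to 92.7. The means were 9.40 ± 2.75 in WT and 44.0 ± 41.2 in KO (SD, n = 3), a ratio of 4.67. The exact two-sided permutation test gave p = 0.1, the smallest value that 3 against 3 libraries allow, so that no test of this kind could pass 0.05. Adjusted over the sum and the 4 ratios below, 5 exact tests in all, it was 0.167. Without KO replicate 2 the ratio was 2.19, and with mitochondrial counts left out of the total it was 4.36.

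The proportions among the hemoglobin transcripts spanned a narrower range than their sum. The ratio of alpha to beta counts was 0.252, 0.0951 and 0.212 in WT and 0.342, 0.442 and 0.241 in KO, overlapping between genotypes (exact permutation p = 0.2, adjusted p = 0.25). WT replicate 2 had the lowest ratio, from 45 alpha counts and 473 beta counts. Hbb-bs made up 84.5% to 87.7% of the beta counts in WT and 85.3% to 89.2% in KO (exact permutation p = 0.3, the same after adjustment). Hba-a1 made up 42.2% to 56.6% of the alpha counts in WT and 58.0% to 66.2% in KO, without overlap (exact permutation p = 0.1, adjusted p = 0.167), subject to the shared reads described above.

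The ratio of Alas2 to hemoglobin was lowest where hemoglobin, its denominator, was highest. For every 100 hemoglobin counts there were 39.7, 39.0 and 24.1 Alas2 counts in WT and 20.1, 3.92 and 11.1 in KO (exact permutation p = 0.1, adjusted p = 0.167). Every KO library lay below every WT library in this ratio. The hemoglobin sum thus spread over an order of magnitude between libraries in which the Alas2 level spread by a factor of 1.38.

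**Figure D2:**
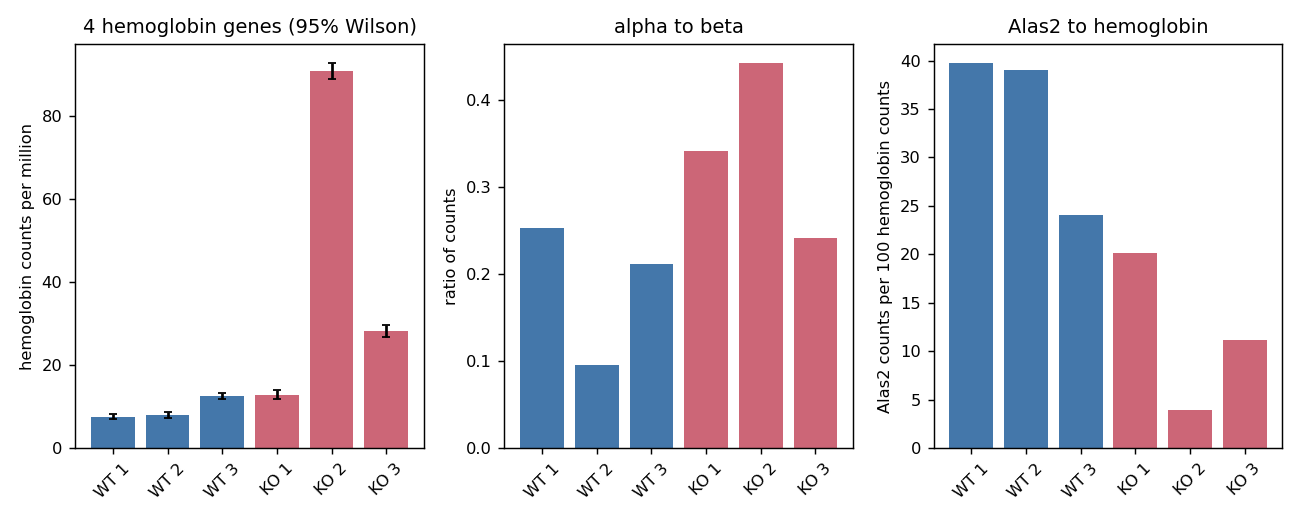
Hemoglobin counts per 1000000 gene counts, summed over the 4 genes, with 95% Wilson intervals (left), the ratio of alpha to beta counts (middle) and Alas2 counts per 100 hemoglobin counts (right), as a bar for each library. Hemoglobin reaches 90.7 counts per 1000000 gene counts in KO replicate 2, where Alas2 is lowest relative to hemoglobin at 3.92.

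KO replicate 2 set much of the size of the difference. Its levels were 21.1 times the WT mean for Hba-a1, 14.5 times for Hba-a2, 7.92 times for Hbb-bs and 5.71 times for Hbb-bt. KO replicate 3 stood at 3.77, 3.21, 2.79 and 2.19 times the WT mean in the same order of genes. KO replicate 1 stood at 2.59 times the WT mean for Hba-a1 and 1.56 times for Hba-a2, and close to it for Hbb-bs at 1.15 times and Hbb-bt at 1.18 times. Without KO replicate 2 the edgeR log2 fold changes were 1.66 for Hba-a1, 1.26 for Hba-a2, 0.98 for Hbb-bs, 0.76 for Hbb-bt and -0.17 for Alas2, with none of the 5 called, beside 0.0174% of all genes. At an unadjusted p under 0.05, Hba-a1, Hba-a2 and Hbb-bs were then higher in KO and Hbb-bt was not past it, beside 15.5% of all genes. DESeq2 without that library called Hba-a1 and Hba-a2, at log2 fold changes of 1.68 and 1.27, beside 4.80% of all genes. DESeq2 with the offset described below called Hbb-bt alone among the 5, at 1.21, beside 2.16% of all genes, and gave Alas2 a log2 fold change of -0.56 with an adjusted p of 0.0266, short of the 2-fold threshold. Without KO replicate 1, edgeR called all 4 hemoglobin genes, beside 16.8% of all genes.

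**Figure D3:**
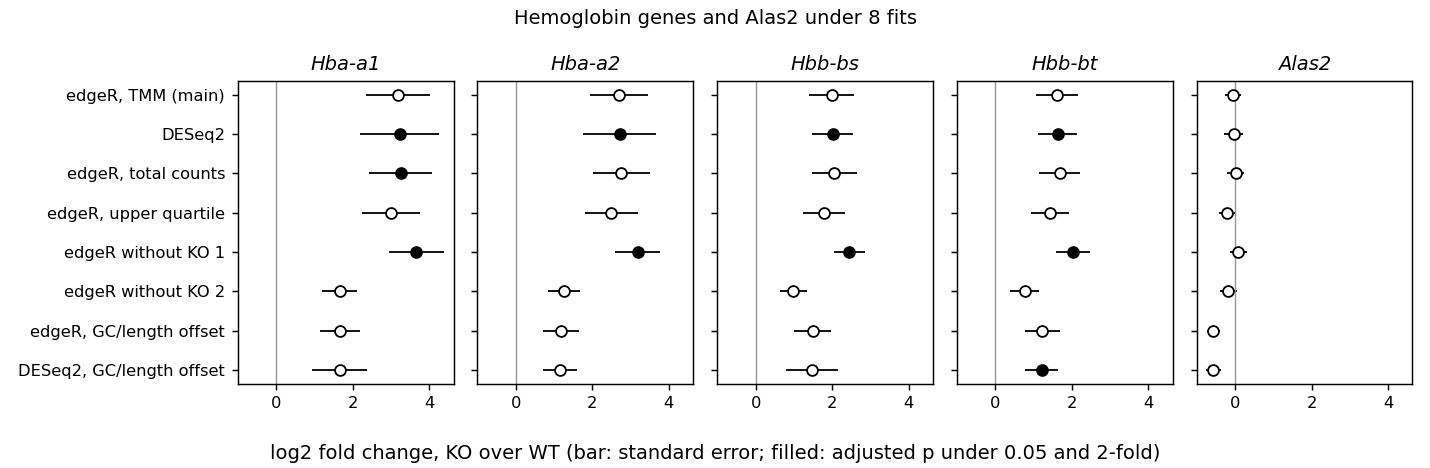
Log2 fold changes of KO over WT with standard errors for the 5 genes under 8 fits, filled where the gene met the DEG thresholds. The 4 hemoglobin genes stay above 0 and range from 0.76 to 3.67, and the calls come and go with the tool and the libraries kept.

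Fold changes between genotypes went with base composition over the whole transcriptome. The 4 hemoglobin genes ranked in the order of their GC content, and Alas2 did not fall in that order. Among genes with a mean of at least 1 CPM, the median log2 fold change was -0.42 for the 2940 genes with a GC content from 40% to 45%, 0.31 for the 3727 genes from 50% to 55% and 1.02 for the 2517 genes from 55% to 60%. The transcripts of Hba-a1 and Hba-a2 had a GC content of 57.2% and 56.9%, those of Hbb-bs and Hbb-bt 51.3% and 50.8%, and that of Alas2 53.3%. The 4 hemoglobin genes lay above the median of genes of their range, in which the 90th percentile of the log2 fold change was 0.95 from 50% to 55% and 1.84 from 55% to 60%, while Alas2 lay below it. An offset fitted in each library to GC content and transcript length lowered the log2 fold changes to 1.67 (SE 0.52) for Hba-a1, 1.18 (SE 0.47) for Hba-a2, 1.49 (SE 0.49) for Hbb-bs and 1.23 (SE 0.46) for Hbb-bt, each with a 95% interval above 0 and an adjusted p of 0.118 to 0.187 in edgeR. None of the 5 was a DEG under the offset, and 0.0125% of all genes were. At an unadjusted p under 0.05 the 4 genes were higher in KO, beside 9.79% of all genes. Alas2 had a log2 fold change of -0.56 under the offset (SE 0.17, 95% interval -0.94 to -0.18, unadjusted p = 0.00819, adjusted p = 0.114 in edgeR), beside 11.7% of all genes lower at that criterion.

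With the offset the library levels changed order in part. Hba-a1 was then 1.15, 0.548 and 1.86 CPM in WT and 1.94, 6.83 and 2.47 CPM in KO, with a narrow gap between the genotypes, as for 11.4% of all genes. The offset lowered Hba-a1 most in KO replicate 2, from 17.2 to 6.83 CPM. KO replicate 3 went from 3.07 to 2.47 CPM and KO replicate 1 from 2.11 to 1.94 CPM. Hba-a2, Hbb-bs and Hbb-bt overlapped between genotypes, since KO replicate 1 lay within the WT range for each. Hbb-bs measured 6.06, 8.05 and 9.86 CPM in WT and 7.04, 39.9 and 20.0 CPM in KO. KO replicate 2 remained the highest library for the 4 hemoglobin genes, at 3.91 to 5.76 times the WT mean. Alas2 measured 3.46, 4.21 and 3.56 CPM in WT and 2.42, 2.38 and 2.79 CPM in KO under the offset, so that every KO library lay below every WT library, as for 14.8% of all genes.

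**Figure D4:**
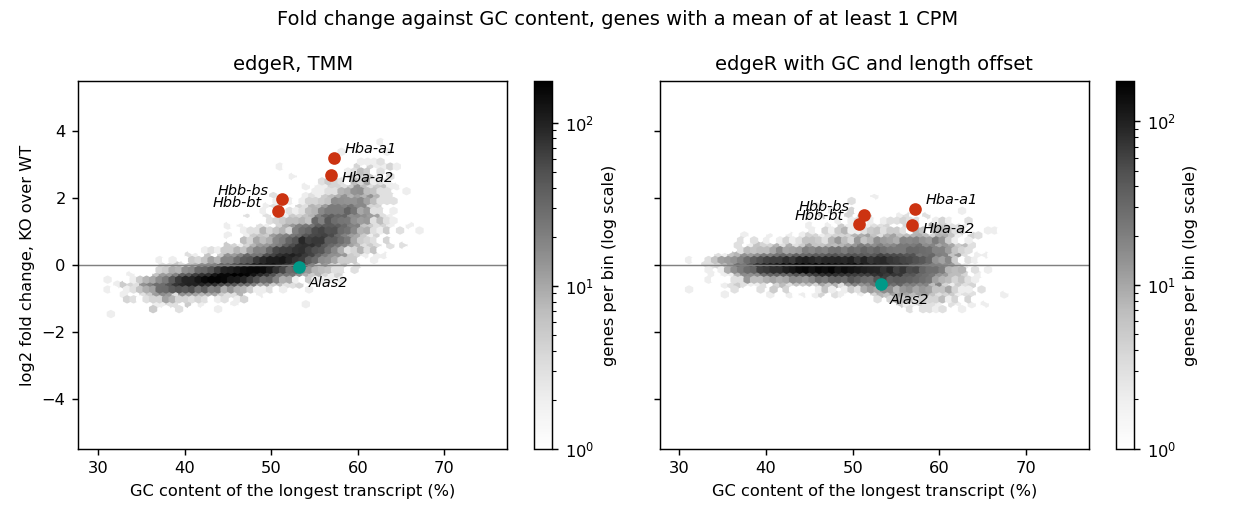
Log2 fold change of KO over WT against the GC content of the longest transcript for genes with a mean of at least 1 CPM, as a density of genes, without (left) and with (right) the GC and length offset, leaving out the few genes beyond 5 on the log2 scale or outside 30% to 75% GC. Hemoglobin genes are red and Alas2 green, with Hba-a1 at 3.19 before and 1.67 after the offset and Alas2 at -0.05 before and -0.56 after.

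Other members of the globin family include embryonic chains, the theta globins of the alpha cluster and globins of other tissues. The embryonic genes Hbb-bh1 and Hbb-bh2 had no count in any library, Hba-x had at most 2 counts and Hbb-y at most 5. Of 6 family members tested, 4 were higher in KO at an unadjusted p under 0.05, beside 19.9% of all genes, and none was a DEG in edgeR. Their median on the log2 scale was 1.16, and 1 of 5 genes tested met the criterion without WT replicate 3, beside 16.0% of all genes, and 1 of 4 without KO replicate 2, beside 15.5%. DESeq2 called Cygb alone of the 6, beside 10.4% of all genes. Cygb, the cytoglobin of fibroblast-like cells and some neurons, measured 24.9 ± 7.21 CPM in WT and 70.8 ± 34.4 CPM in KO (SD, n = 3), a log2 fold change of 1.51 (SE 0.36, adjusted p = 0.0634 in edgeR). Ngb, the neuroglobin of neurons, had a log2 fold change of 0.70 (SE 0.27, adjusted p = 0.118 in edgeR), which turned to -0.38 with the offset. Hbq1b, a theta globin, had 0 or 1 counts in WT and 0, 20 and 5 counts in KO. With the offset the median of these 6 genes was 0.11 and Cygb was at 0.22. Hbq1b at 2.42 and Mb, the myoglobin gene, at 1.03 stayed above 1, as the 4 hemoglobin genes did. None of the 6 was then higher at an unadjusted p under 0.05 and 1, Ngb, was lower, beside 9.79% and 11.7% of all genes.

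Heme synthesis genes, of which 12 were tested, had a median log2 fold change of 0.37, against -0.06 over all genes. It was 0.10 without KO replicate 2. Alas1 and 3 others were higher at an unadjusted p under 0.05 and none was lower, beside 19.9% and 12.0% of all genes, and none was a DEG in edgeR, while DESeq2 called Alad and Slc25a38, beside 10.4% of all genes. Alad, the enzyme of the step after ALAS, showed the largest difference, with 2.56 ± 0.708 CPM in WT and 11.6 ± 8.95 CPM in KO (SD, n = 3) and a log2 fold change of 2.18 (SE 0.53, adjusted p = 0.0634 in edgeR, 1.09 with the offset). Slc25a38, the mitochondrial glycine carrier, was at 1.04 (SE 0.30), Urod, a later enzyme of the pathway, at 0.88 (SE 0.24) and Alas1 at 0.49 (SE 0.20) on the log2 scale. Fech, which inserts the iron, was at 0.04 (SE 0.15) and Slc25a37, the mitochondrial iron importer mitoferrin, at -0.29 (SE 0.17). With the offset the median of the 12 genes was 0.04, and 2 were higher and 1 lower at an unadjusted p under 0.05, beside 9.79% and 11.7% of all genes. Alas1, Urod and Slc25a38 no longer passed, at -0.01, 0.22 and 0.10, while Fech was higher at 0.32 and Abcb10, a partner of mitoferrin, lower at -0.46.

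Red cell membrane and cytoplasmic genes gave little signal of their own. Of 17 listed genes 16 were in the table, all were tested, 2 were higher and 1 lower at an unadjusted p under 0.05, beside 19.9% and 12.0% of all genes, and the median log2 fold change was -0.21. That median was -0.03 without KO replicate 2, -0.04 without KO replicate 1, -0.43 without KO replicate 3 and -0.07 with the offset. Slc4a1, the band 3 anion exchanger, measured 0.488 ± 0.0796 CPM in WT and 0.429 ± 0.176 CPM in KO (SD, n = 3). In KO replicate 2, where hemoglobin was highest, Slc4a1 had 41 counts, Epb42 7, Rhag 0, Kel 1 and Hemgn 2, so that these defining genes, Slc4a1 apart, stood within a few counts of 0. The members that were higher, Sptb at 1.05 (SE 0.30) and Ank1 at 1.03 (SE 0.29) on the log2 scale, encode spectrin and ankyrin chains that neurons also make, and their WT means were 93.6 and 73.7 CPM. DESeq2 called these genes alone of the list, beside 10.4% of all genes. With the offset they were at 0.13 and 0.07, and the list then had 0 genes higher and 3 lower at an unadjusted p under 0.05, beside 9.79% and 11.7% of all genes.

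The transcription factors of the red cell lineage, listed together with the receptor gene Epor, differed among themselves. Of the 8 genes tested, Epor included, 3 were higher at an unadjusted p under 0.05 and none lower, beside 19.9% and 12.0% of all genes. Epor was 1 of the 3. Their median was 0.36 on the log2 scale, or -0.50 with the offset. Without KO replicate 2 it was 0.16, and without KO replicate 3 or any 1 WT library, which left 7 genes tested, it was 0.66 to 0.76. With the offset 2 were higher and 2 lower, beside 9.79% and 11.7% of all genes, with Ldb1, a cofactor of LMO2, turning from 0.70 (SE 0.29) to -0.47 and Lmo2 going from -0.13 to -0.72. Gata1 had 2, 3 and 2 counts in WT and 0, 0 and 3 counts in KO. Klf1, the activator of adult beta globin, had 7, 4 and 10 counts in WT and 7, 20 and 10 counts in KO (log2 fold change 0.97, SE 0.45, adjusted p = 0.172 in edgeR, turning to -0.54 with the offset). Zfpm1, the GATA1 cofactor FOG-1, had a GC content of 66.8% and a log2 fold change of 3.4 (SE 0.81, adjusted p = 0.0634 in edgeR), which the offset lowered to 1.08. Epor, the erythropoietin receptor, was at 2.18 (SE 0.57) and at 0.65 with the offset. DESeq2 called Zfpm1 and Epor, beside 10.4% of all genes.

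**Figure D5:**
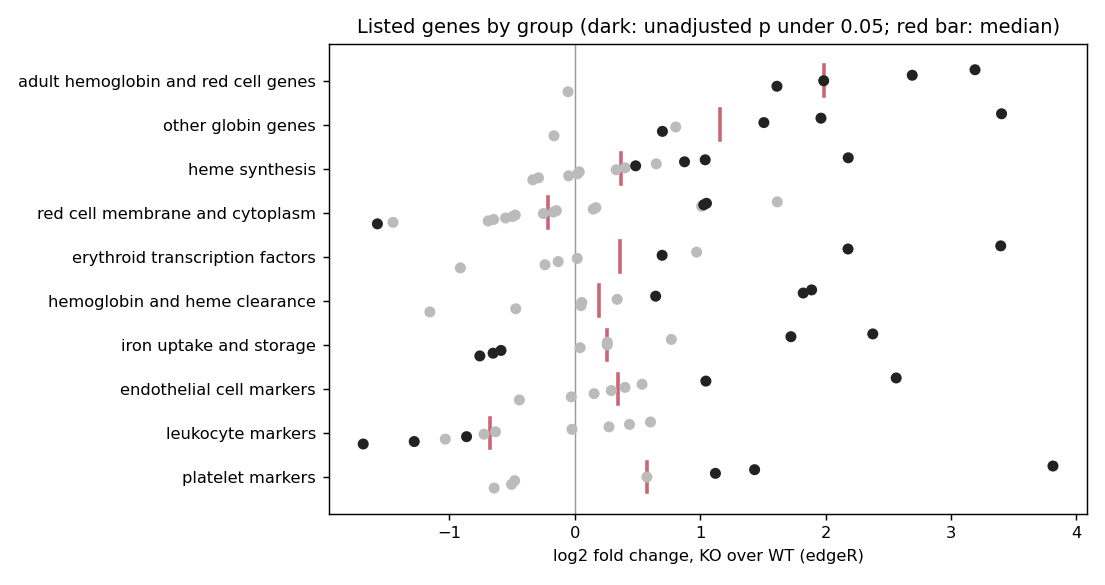
Log2 fold changes of KO over WT for the tested genes of 10 lists, dark where the unadjusted edgeR p was under 0.05, with a red bar at the median of the list. The median is 1.99 for the 5 hemoglobin and red cell genes, -0.21 for red cell membrane and cytoplasmic genes and -0.68 for leukocyte markers.

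Genes that clear hemoglobin and handle iron differed gene by gene. Of 8 clearance genes 3 were higher at an unadjusted p under 0.05, beside 19.9% of all genes, namely Blvrb (biliverdin reductase B, also abundant in red cells) at 1.89 (SE 0.52), Lrp1 (a receptor of the heme-hemopexin complex) at 1.82 (SE 0.45) and Hmox1 (the inducible heme oxygenase) at 0.65 (SE 0.22) on the log2 scale. Cd163, the macrophage receptor for hemoglobin bound to haptoglobin, was at -0.47 (SE 0.29), and Hp, or haptoglobin, which binds free hemoglobin, at -1.16 (SE 0.72). Hp had 120, 23 and 11 counts in WT replicates 1 to 3 and 10, 40 and 9 counts in KO replicates 1 to 3. Its highest library was WT replicate 1, which also had the most lung transcripts. In CPM, KO replicate 2 lay above WT replicates 2 and 3. Of 9 iron genes 2 were higher and 3 lower at that criterion, beside 19.9% and 12.0% of all genes. Ftl1, the ferritin light chain, was at 2.38 (SE 0.49) and Trf, or transferrin, at 1.72 (SE 0.35), while Tfrc, the transferrin receptor that red cell precursors carry in large amounts, was at -0.76 (SE 0.27), Ireb2 at -0.65 (SE 0.24) and Slc40a1, the iron exporter ferroportin, at -0.59 (SE 0.26). With the offset the log2 fold changes were 1.08 for Ftl1, 1.33 for Trf, 1.19 for Blvrb, 0.77 for Lrp1, 0.10 for Hmox1 and -2.18 for Hp. Of the clearance genes Blvrb, Lrp1 and Blvra (0.27) were then higher and Hp lower at an unadjusted p under 0.05, beside 9.79% and 11.7% of all genes. Those of Tfrc, Ireb2 and Slc40a1 were then -0.24, -0.09 and -0.18, with none of the 3 past an unadjusted p of 0.05, while Trf and Ftl1 were higher and Aco1, the cytosolic aconitase, was lower at -0.23. None of these 17 genes was a DEG in edgeR, and DESeq2 called Ftl1, Trf, Lrp1 and Blvrb higher, beside 10.4% of all genes.

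Markers of other blood and vessel cells differed in direction. The 10 leukocyte markers summed to 14.9 to 18.1 CPM in WT and to 12.2, 7.77 and 12.5 CPM in KO, lowest in the library with most hemoglobin. Ptprc, with a GC content of 39.4% and means of 6.85 CPM in WT and 3.78 CPM in KO, was the largest part of that sum. The sum was not taken with the offset. At an unadjusted p under 0.05, 3 of the 10 were lower, beside 12.0% of all genes, and none was higher. The 3 were Ptprc at -0.86 (SE 0.28), Mmp8 at -1.69 (SE 0.43) and S100a8, and the lymphocyte genes Cd79a at 0.44 (SE 0.61), Trbc2 at 0.27 (SE 0.28) and Cd3e at -0.02 (SE 0.58) did not pass. With the offset 3 were again lower, beside 11.7% of all genes, with Retnlg at -1.09 in place of Ptprc at -0.31. S100a8, a neutrophil gene, had 264, 186 and 249 counts in WT and 72, 50 and 98 counts in KO (log2 fold change -1.28, SE 0.41, adjusted p = 0.0833 in edgeR). The 7 platelet markers summed to 2.43 to 3.37 CPM in WT and to 4.11, 9.07 and 3.90 CPM in KO, with 3 of 7 higher at an unadjusted p under 0.05, beside 19.9% of all genes, and 1 of 7 with the offset, beside 9.79%. Most of that sum came from Gp1bb, with a GC content of 62.0% and a log2 fold change of 1.12, or -0.51 with the offset, and Gp1bb was 1 of the 3. Itga2b, the platelet integrin alpha chain, had 58, 19 and 28 counts in WT and 23, 182 and 65 counts in KO, a log2 fold change of 1.43 (SE 0.47, adjusted p = 0.0890 in edgeR), or 0.23 with the offset. Gp9, the third and the marker that passed with the offset too, had 0, 0 and 1 counts in WT and 2, 12 and 4 counts in KO. The 4 markers that did not pass ranged from Ppbp at -0.64 (SE 0.54) to Pf4 at 0.57 (SE 0.38). Of 8 endothelial markers 2 were higher at an unadjusted p under 0.05, a share near the 19.9% of all genes. These were Cldn5 at 2.56 (SE 0.65), or 0.85 with the offset, and Slc2a1 at 1.05 (SE 0.25), or 0.45, and 6 did not pass, among them Flt1 at -0.03 (SE 0.16). Cldn5 and Slc2a1 also passed with the offset, beside 9.79% of all genes. Of 6 choroid plexus markers 1 was higher, Ttr at 1.29 (SE 0.33), and 1 lower, Kl at -0.40 (SE 0.16), beside 19.9% and 12.0% of all genes. Ttr, or transthyretin, measured 309, 285 and 213 CPM in WT and 402, 1018 and 554 CPM in KO, highest in KO replicate 2 as the hemoglobin genes were. With the offset Ttr was at 1.4, and Kl at -0.27 and Clic6 at -0.41 were lower, beside 9.79% and 11.7% of all genes. The lung markers were lower in KO in 7 of 7 genes at an unadjusted p under 0.05, beside 12.0% of all genes, and were highest in WT replicate 1. None of the genes of these lists was a DEG in edgeR, which called 2 genes in all. DESeq2 called 7 lung and 2 leukocyte markers lower, beside 1.04% of all genes, and 2 endothelial, 2 platelet and 1 choroid plexus markers higher, beside 10.4%. The part of these cells in the hemoglobin levels was not tested.

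The library profile of hemoglobin was common among genes. Over the 6 libraries, Pearson's r between log2 of the hemoglobin sum and log2 CPM was 0.997 for Hbb-bs, 0.993 for Hbb-bt, 0.988 for Hba-a2 and 0.973 for Hba-a1, which are parts of that sum, and 0.458 for Alas2, which turned to -0.19 without KO replicate 2. These correlations are descriptions that share libraries, depth and base composition. Of 14706 genes with a mean of at least 1 CPM, 1103 (7.50%) had r of at least 0.95. The 10 protein-coding genes outside the lists with the highest r, among them Cbln1, Trmt44, Lysmd4, Ssr4, Mta1, Barhl1, Spag4, Ficd and Mark2, had r from 0.991 to 0.998 over 6 libraries and from 0.958 to 0.990 without KO replicate 2. Cbln1, a synapse organizer secreted by cerebellar granule cells, measured 117, 121 and 130 CPM in WT and 129, 231 and 164 CPM in KO. The 10 genes had a GC content of 49.7% to 60.6% and log2 fold changes of 0.19 to 1.51, smaller than those of the 4 hemoglobin genes.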

How the data were processed

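Total RNA of an adult brain hemisphere per mouse was poly(A)-selected for stranded libraries. The authors aligned the reads to GRCm38 (Ensembl annotation) and counted them on exons; the submitters' processing notes name cutadapt 1.11, STAR 2.5.0a and featureCounts 1.4.6-p3, while the methods also name Tophat2 and differ on read length. The deposited values were raw whole-number counts per gene, without normalization, in 1 column per mouse (0 columns of other samples). Embryonic brains were not analysed here.

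Samples were grouped by title. Genes with at least 10 counts in all were fitted with edgeR 4.0.16 (TMM factors, quasi-likelihood test, genotype only, Benjamini-Hochberg adjustment over 23975 genes) in R 4.3.3. DEGs needed an adjusted p under 0.05 and a 2-fold change. Intervals of log2 fold changes use the t distribution of that fit. DESeq2 1.42.0 was the alternative tool. The offset for GC content and transcript length came from natural splines (5 and 3 degrees of freedom) of log2 CPM in each library, fitted to 13251 genes with GENCODE M21 transcripts, which covered 23940 of the genes tested. Scripts were tested on simulated data. Replicates are separate mice, so p-values measure spread between mice. A level of 3 counts was 0.0315 to 0.0689 CPM. Alternatives were other size factors and filters, each sample left out and the replicate block; DESeq2 with the offset or without KO replicate 2 was added after the data were seen.

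Named genes were the 5 hemoglobin and red cell genes, Bahd1, brain markers, the listed genes with the largest and smallest changes or past a test, and the 10 genes most like hemoglobin over libraries (Pearson's r of log2(CPM + 1)). Defining red cell genes, Ngb, Klf1, Cd163, Ppbp, Flt1 and other listed genes that passed no test were added after their values were seen. Some genes under these rules are not reported here. The genes and lists were chosen with earlier results of these data known.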

Additional observations from a re-analysis of the deposited data

How the results depend on the processing

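Directions of the 4 hemoglobin genes held in every alternative run, and the calls did not. Of the 5 genes, 0 were DEGs in edgeR with TMM, 1 with total counts (Hba-a1, 3.25), 4 with no filter (3.21, 2.71, 2.0 and 1.63 for Hba-a1, Hba-a2, Hbb-bs and Hbb-bt), 4 with DESeq2 (3.23, 2.72, 2.01 and 1.63), 2 with DESeq2 without Bahd1-KO replicate 2 (Hba-a1 1.68, Hba-a2 1.27) and 1 with DESeq2 and the offset (Hbb-bt, 1.21). Leaving out each sample in turn gave 0 to 4 calls and log2 fold changes of 1.66 to 3.67 for Hba-a1, 1.26 to 3.18 for Hba-a2, 0.98 to 2.45 for Hbb-bs, 0.76 to 2.02 for Hbb-bt and -0.17 to 0.087 for Alas2. Alas2 changed sign with total counts (0.022) and without Bahd1-KO replicate 1 (0.087). Of the lists at an unadjusted p under 0.05, which 31.8% of all genes met in either direction, other globin genes went from 4 of 6 to 2 of 3 with filterByExpr (38.3% of all genes), 1 of 6 with the offset (21.5%) and 0 of 6 with the block and offset (15.7%). With a sample left out they went to 1 to 4, of 4 to 6 tested (18.3% to 43.2% of all genes). Red cell membrane genes went from 3 of 16 to 1 of 16 with the block and offset and to 3 to 5 with a sample left out (5 of 16 without Bahd1-KO replicate 3, beside 27.3%), and iron genes from 5 of 9 to 3 with the offset, 2 with the block and offset and 3 to 7 with a sample left out (3 without Bahd1-WT replicate 2 or 3, beside 18.3% and 24.3%). The total counts of heme synthesis genes, erythroid transcription factors (with Epor) and clearance genes stayed within 1.5 times under the alternatives run, but their directions changed with the offset, from 4 higher and 0 lower to 2 and 1, from 3 and 0 to 2 and 2, and from 3 and 0 to 3 and 1. Heme synthesis genes also had 3 and 1 with upper-quartile factors, and clearance genes 2 and 1 without Bahd1-WT replicate 3. With filterByExpr the medians were 0.83 for the transcription factors with Epor (6 tested) and -0.01 for the membrane genes (8 tested), and with no filter the former was 0.03 (9 tested). Scaling moved the split of all genes at that criterion from 19.9% higher and 12.0% lower to 16.6% and 18.1% with upper-quartile factors, where the median log2 fold change of all genes went from -0.06 to -0.20, and to 22.3% and 7.42% with total counts. The marker lists of other cells were recounted only with the offset and DESeq2. Deviations from the genotype mean correlated at -0.58, -0.61 and -0.14 between same-numbered WT and KO samples over 14706 genes. They correlated at 0.60 between WT replicate 2 and KO replicate 1, and at 0.54 between WT replicate 1 and KO replicate 2. With 3 samples per genotype these values cannot decide whether the numbers pair samples. A fit with the replicate block called 0 of the 5, at 2.52, 2.03, 1.56, 1.36 and -0.07 on the log2 scale. At the depth reached, levels under 0.0315 to 0.0689 CPM rested on fewer than 3 counts. The cause of the lost calls was not tested.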
